A study of Homo sapiens with 16 samples.

Results

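The 9 genes FOS, FOSB, FOSL1, FOSL2, JUN, JUNB, JUND, ATF3 and MAFF were followed through U2OS cells with or without knockdown of 2 lipid kinases and with or without exposure to ultraviolet C light (UV). They were chosen by name as the genes of the FOS and JUN families with ATF3 and MAFF, and each symbol matched 1 Ensembl identifier among the 60666 genes of the deposited tables. U2OS is an established human sarcoma line. The 8 groups were shPIP4K2A, shPIP4K2B and shPIP4K2AB cells, which stably carried short hairpin RNAs against the phosphatidylinositol 5-phosphate 4-kinase genes PIP4K2A, PIP4K2B or both, and plko cells with the plko.puro plasmid and no hairpin named. Each line was collected 6 h after UV at 30 J/m2 or left untreated, with 2 libraries a group. The labels give every line, plko included, the same puromycin medium. UV was given with the medium taken off, and whether untreated cells lost their medium too is not stated. No line with a hairpin against an unrelated sequence is among the samples, and the hairpins of each line are named by their target only. Nothing in the labels tells if the 2 libraries of a group are separate cultures, so the p-values below cover the variation between these libraries, which may be technical. In bulk RNA, fewer cells that express a gene and less RNA per cell cannot be told apart.

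AP-1 is a family of dimeric transcription factors whose subunits pair through a leucine zipper and hold DNA through a basic region, which gives the wider class its name, bZIP. FOS proteins need a partner of the JUN family to bind DNA well, while JUN proteins can also pair with each other, with ATF proteins and with MAF proteins. FOS, FOSB, JUN, JUNB and ATF3 are known as immediate early genes, switched on by stress kinases, growth factors and ultraviolet light within minutes, and their short-lived mRNAs usually decline again within hours. FOSL1 and FOSL2 encode FRA-1 and FRA-2, FOS relatives without the strong activation domain of FOS, and MAFF encodes a small MAF protein that lacks an activation domain.

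In the GENCODE 29 annotation of GRCh38 the genes lie on 6 chromosomes. FOS is at chr14:75278774-75282230 (ENSG00000170345), FOSB at chr19:45467995-45475179 (ENSG00000125740), JUNB at chr19:12791496-12793315 (ENSG00000171223), FOSL2 at chr2:28392448-28417312 (ENSG00000075426), ATF3 at chr1:212565334-212620777 (ENSG00000162772) and MAFF at chr22:38200767-38216511 (ENSG00000185022), all on the plus strand. On the minus strand are JUN at chr1:58780788-58784327 (ENSG00000177606), JUND at chr19:18279760-18281622 (ENSG00000130522) and FOSL1 at chr11:65892049-65900573 (ENSG00000175592). JUN and JUNB are genes of a single exon.

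The libraries held 28.0 to 39.9 M expected counts (estimated read counts per gene), except plko untreated replicate 1, which held 1.28 M, with 14.6% of counts from mitochondrial genes against 2.20 to 3.43% in the other 15 libraries. That library was set aside, so each comparison with untreated plko cells rests on 1 plko library, whose variation is borrowed from the remaining groups. It also stood apart in all 10 of 10 blood cell markers, which summed to 181 CPM (counts scaled to a fixed library size) there against 1.16 to 2.64 CPM in the other 15 libraries. Against the label of a sarcoma line, the mesenchymal markers COL1A1, SPARC, VIM and FN1 were at 656 CPM or more in all 15 libraries and RUNX2 at 14.3 to 60.1 CPM. The osteoblast genes SP7, BGLAP and IBSP and the collagen gene COL1A2 were at or below 0.627 CPM in all 15. The 10 epithelial markers summed to 332 to 946 CPM in UV libraries, against 276 to 502 CPM in untreated ones. Of them KRT8 was 118 to 579 CPM, KRT18 106 to 332 CPM and CLDN4 10.9 to 39.4 CPM over the 15 libraries. EPCAM was at 1.83 to 6.32 CPM and KRT19 at or below 0.11 CPM throughout. Of 9 epithelial markers tested 4, 5, 4 and 0 rose after UV in shPIP4K2A, shPIP4K2B, shPIP4K2AB and plko cells (adjusted p under 0.05, edgeR). Of all genes tested 16.6, 17.5, 19.1 and 8.67% rose in these lines. The marker that fell was CLDN4, in shPIP4K2A cells, where 14% of all genes fell. In plko cells, with 1 untreated library, KRT8, KRT14, KRT18 and EPCAM had log2 fold changes of 0.41 to 0.66, short of the test. The part of these markers in the results below was not tested. The targeted mRNAs were low in the lines named for them. PIP4K2A was 7.91 to 20.5 CPM in shPIP4K2A and shPIP4K2AB libraries, against 55.0 to 61.1 CPM in plko libraries. PIP4K2B was 12.8 to 24.6 CPM in shPIP4K2B and shPIP4K2AB libraries, against 83.3 to 97.0 CPM in plko libraries. The residual level differed by treatment. Mean PIP4K2A was 7.96 CPM after UV and 14.9 CPM untreated in shPIP4K2A, 10.2 and 20.4 CPM in shPIP4K2AB and 58.0 and 57.0 CPM in plko cells. In that order mean PIP4K2B was 16.8 and 23.2 CPM in shPIP4K2B, 13.3 and 16.3 CPM in shPIP4K2AB and 85.3 and 97.0 CPM in plko cells. The 2 shPIP4K2A UV libraries differed more between themselves than any other pair used, with a chi-square per degree of freedom of 94.3, against 1.80 to 21.1 for the 6 other groups that kept 2 libraries.

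Sequences upstream of the RefSeq start sites (GRCh38.p14) are shown for 6 members that span the range of UV responses described further on: FOS, FOSB and JUNB, with the highest UV folds, then ATF3, JUN and FOSL2. Each runs 150 bases up to the last base before the start, on the gene's own strand, with matches to 3 motifs in capitals: TATAAA, the TATA box; TGACGT, the core of the cyclic AMP response element; and TGACATCA, a variant of the AP-1 site that JUN and ATF proteins bind. The positions are chr14:75278678-75278827 for FOS, chr19:45467846-45467995 for FOSB and chr19:12791336-12791485 for JUNB, all on the plus strand. They are chr1:212565257-212565406 for ATF3 (the first of its 2 starts) and chr2:28392708-28392857 for FOSL2 on the plus strand, and chr1:58784048-58784197 for JUN on the minus strand.
FOS: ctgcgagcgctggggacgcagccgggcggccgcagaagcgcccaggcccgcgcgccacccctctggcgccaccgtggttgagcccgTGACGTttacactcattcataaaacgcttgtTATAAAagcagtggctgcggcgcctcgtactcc
FOSB: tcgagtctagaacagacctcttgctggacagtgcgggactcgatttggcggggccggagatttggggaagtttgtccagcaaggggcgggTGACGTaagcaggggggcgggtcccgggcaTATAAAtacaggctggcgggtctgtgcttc
JUNB: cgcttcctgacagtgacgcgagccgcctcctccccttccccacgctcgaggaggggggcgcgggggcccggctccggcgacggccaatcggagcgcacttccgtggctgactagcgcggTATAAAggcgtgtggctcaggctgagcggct
ATF3: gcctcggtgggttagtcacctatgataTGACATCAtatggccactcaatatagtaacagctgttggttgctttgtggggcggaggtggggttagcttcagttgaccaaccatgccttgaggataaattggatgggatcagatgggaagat
JUN: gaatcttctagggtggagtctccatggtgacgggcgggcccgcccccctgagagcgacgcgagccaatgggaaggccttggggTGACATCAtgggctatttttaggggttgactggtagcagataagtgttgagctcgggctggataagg
FOSL2: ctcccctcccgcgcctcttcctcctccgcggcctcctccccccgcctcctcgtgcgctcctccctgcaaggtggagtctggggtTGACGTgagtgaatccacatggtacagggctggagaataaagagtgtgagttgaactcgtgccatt

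Among 35116 RefSeq promoter windows, 250 bases before to 50 after the start, read on both strands, TATAAA lay in 11.5%, and TATAAA starting 35 to 25 bases before the start lay in 2.64%. Of the 8 members with a window, FOS, FOSB and JUNB had it there, beginning 33, 30 and 31 bases before the start. TGACGT was found in FOS, FOSB, FOSL2, JUND and MAFF, 5 of 8 members, against 7.98% of all windows; in FOS, FOSB and FOSL2 it began 64, 60 and 66 bases before the start. TGACATCA was found in JUN and ATF3, against 2.61% of all windows, and the full element TGACGTCA, which contains TGACGT, in JUND and MAFF, against 1.85%. The consensus AP-1 site TGANTCA was found in FOSL2 alone, just after the start, against 7.71%. The CArG box, the serum response factor site, was found in none of 8 windows, against 1.29%. Sites more than 250 bases before the start were not searched, so a motif missing here may lie further upstream. TGACGT, TGACATCA and the TATAAA position were searched after the sequences had been seen, and a match is a description of letters, not of a bound site.

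UV was followed by higher FOS, FOSB and JUNB mRNA and lower FOSL2 mRNA in every line. FOS was 5.76 to 8.86-fold higher, FOSB 5.10 to 7.21-fold, JUNB 2.54 to 3.78-fold, and FOSL2 fell to 0.515 to 0.598 of the untreated level. JUND and ATF3 also rose in all 4 lines on the scale used here, while FOSL1, JUN and MAFF passed the test in only some. The test was edgeR's quasi-likelihood test over 22597 genes with Benjamini-Hochberg adjustment, and a gene is said to have changed where adjusted p was under 0.05. By this rule 6, 6, 9 and 7 of the 9 members changed in the shPIP4K2A, shPIP4K2B, shPIP4K2AB and plko lines, beside 30.6, 32.9, 35.2 and 18.5% of all genes tested. The median log2 fold change of the 9 was 0.62, 1.05, 1.00 and 0.56 in the same lines, against 0.01, 0.00, 0.02 and 0.02 for all genes. Levels below are CPM scaled by the trimmed mean of M-values (TMM), which sets the bulk of genes equal between libraries. When 84 ribosomal protein genes were held equal instead, the median UV change of all genes shifted to -0.79, -0.90, -0.85 and -0.70 in those lines, and each member whose direction turns is named with its values.

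**Figure D1:**
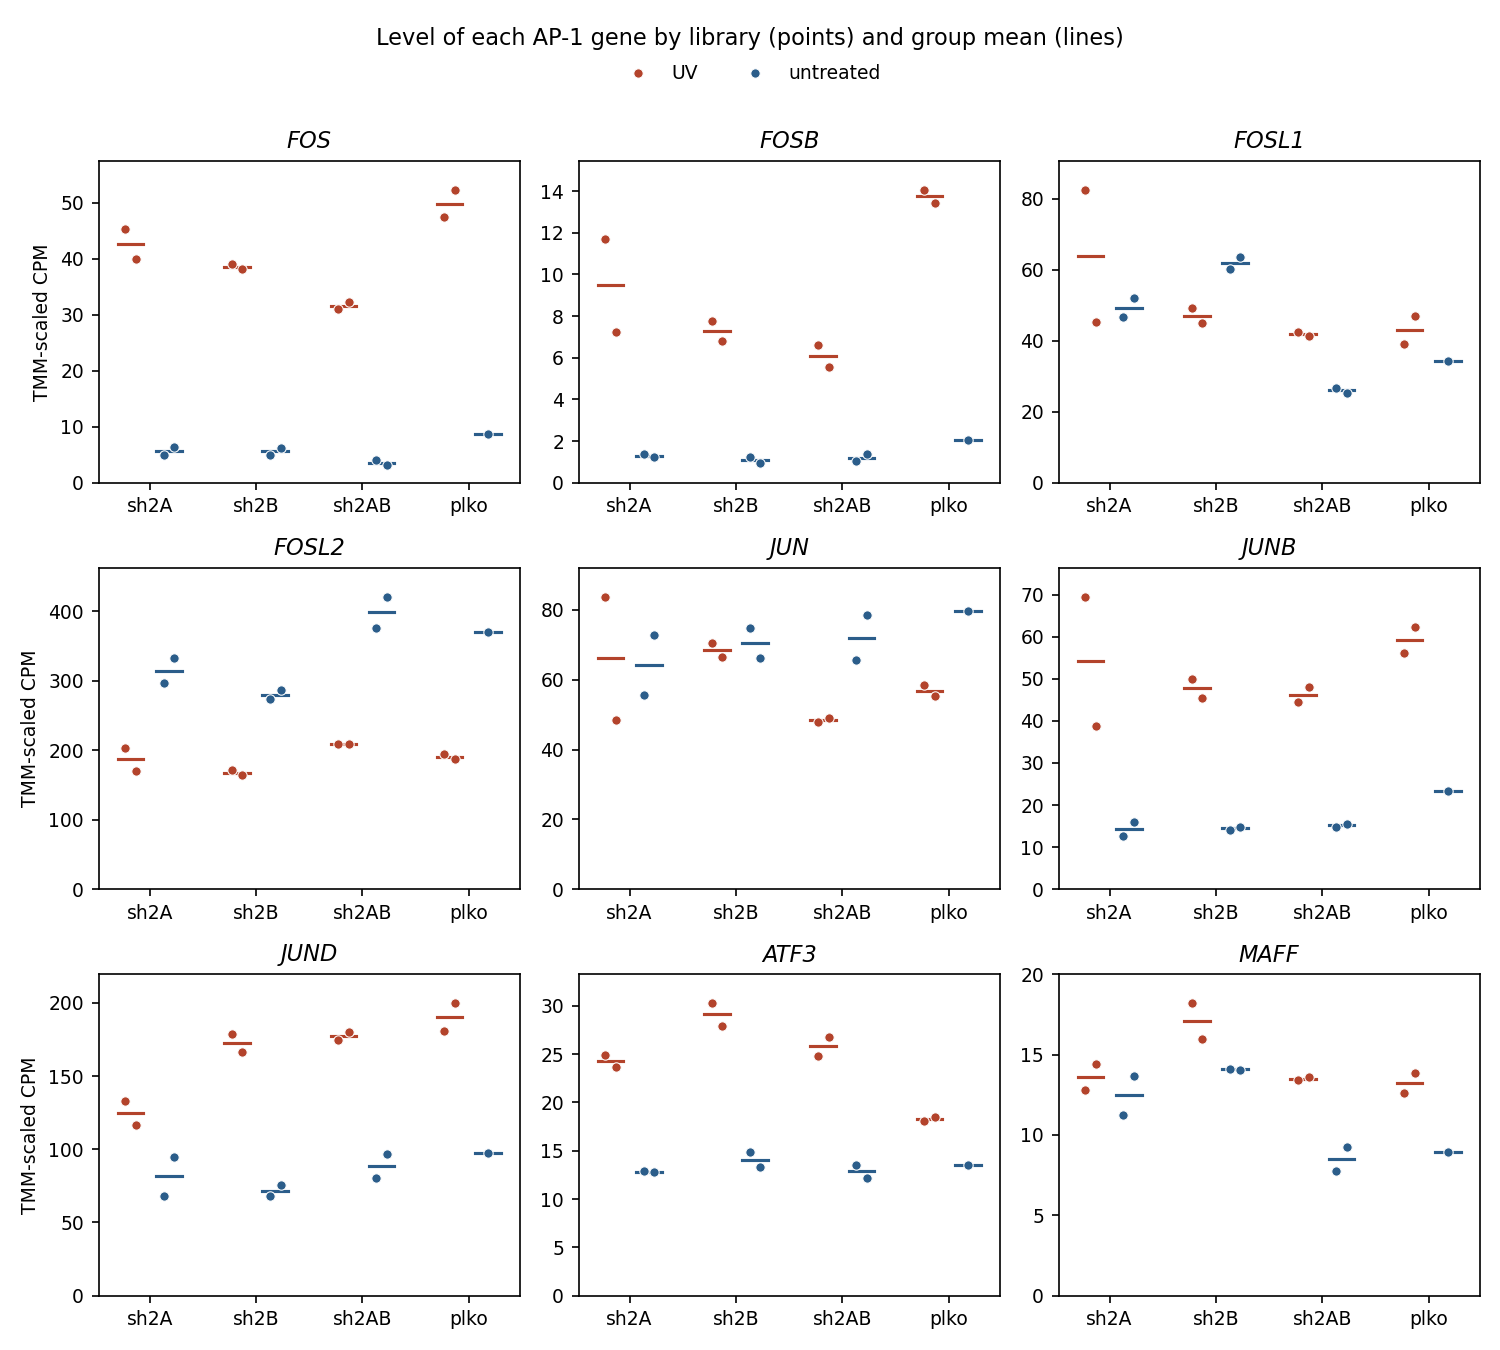
Level of each AP-1 gene (TMM-scaled CPM, vertical axis, own scale per panel) by line (sh2A, shPIP4K2A; sh2B, shPIP4K2B; sh2AB, shPIP4K2AB), 6 h after UV (red) and untreated (blue); points are libraries and lines are group means, with 1 untreated plko library. FOS libraries lay at 30.9 to 52.2 CPM after UV and at 3.14 to 8.64 CPM untreated, and the 2 shPIP4K2A UV libraries lie far apart for FOSL1, JUN and JUNB.

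FOS, the founding member of the family, was 45.2 and 39.9 CPM in shPIP4K2A UV libraries, against 5.0 and 6.34 CPM untreated, and 39.0 and 38.2 CPM in shPIP4K2B UV libraries, against 5.03 and 6.14 CPM untreated. It was 30.9 and 32.3 CPM in shPIP4K2AB UV libraries, against 3.98 and 3.14 CPM untreated. It was 47.4 and 52.2 CPM in plko UV libraries, against 8.64 CPM untreated. The lowest UV library of any line was above the highest untreated library of any line. The log2 fold change was 2.91 ± 0.15 (SE; adjusted p = 1.93e-07, edgeR) in shPIP4K2A, 2.79 ± 0.15 (adjusted p = 2.49e-07) in shPIP4K2B, 3.15 ± 0.15 (adjusted p = 9.87e-08) in shPIP4K2AB and 2.53 ± 0.19 (adjusted p = 3.1e-06) in plko cells. FOS passed the test in all 4 lines under each of the alternatives run, including the fit with plko untreated replicate 1, and with ribosomal protein scaling its log2 fold changes were 2.11, 1.89, 2.27 and 1.80.

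FOSB, a close relative of FOS, moved with it. FOSB was 11.7 and 7.26 CPM in shPIP4K2A UV libraries, against 1.39 and 1.22 CPM untreated, and 7.74 and 6.80 CPM in shPIP4K2B UV libraries, against 1.24 and 0.941 CPM untreated. It was 6.59 and 5.56 CPM in shPIP4K2AB UV libraries, against 1.02 and 1.36 CPM untreated. It was 14 and 13.4 CPM in plko UV libraries, against 2.06 CPM untreated. UV and untreated libraries did not overlap, within lines or between them. FOSB rose by 2.85 ± 0.24, 2.73 ± 0.25, 2.35 ± 0.25 and 2.74 ± 0.30 on the log2 scale (SE), in shPIP4K2A, shPIP4K2B, shPIP4K2AB and plko cells, with the largest of the 4 adjusted p-values at 7.75e-05 (edgeR).

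FOSL2 was the only member that fell in every line on the TMM scale; with ribosomal protein scaling JUN fell in every line as well. It was 204 and 170 CPM in shPIP4K2A UV libraries, against 296 and 332 CPM untreated, and 171 and 164 CPM in shPIP4K2B UV libraries, against 273 and 287 CPM untreated. It was 209 CPM in both shPIP4K2AB UV libraries, against 376 and 421 CPM untreated. It was 194 and 187 CPM in plko UV libraries, against 370 CPM untreated. All 8 UV libraries lay below all 7 untreated ones. The log2 changes were -0.75 ± 0.10, -0.74 ± 0.10, -0.93 ± 0.10 and -0.96 ± 0.12 (SE), in the same order of lines, with the largest adjusted p at 0.000181 (edgeR), and they were lower still, -1.56 to -1.80, with ribosomal protein scaling.

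FOSL1 differed in direction between lines on the TMM scale. It was 42.5 and 41.4 CPM in shPIP4K2AB UV libraries, against 26.7 and 25.4 CPM untreated, which passed the test (log2 0.69 ± 0.20 SE; adjusted p = 0.0197, edgeR). In shPIP4K2B cells it was 49.1 and 45.1 CPM after UV, against 60.2 and 63.6 CPM untreated (log2 -0.39 ± 0.20, adjusted p = 0.153). These lines thus differed in sign with no overlap of their UV and untreated libraries, and the test of that difference is given with the other response differences. In plko cells FOSL1 was 39.1 and 46.9 CPM after UV, against 34.4 CPM untreated (log2 0.32 ± 0.25, adjusted p = 0.409), and in shPIP4K2A cells the UV libraries, 82.5 and 45.2 CPM, lay on both sides of the untreated 46.7 and 52.0 CPM (log2 0.37 ± 0.20, adjusted p = 0.179). The shPIP4K2AB rise lost its call without either shPIP4K2AB UV or either shPIP4K2AB untreated library (adjusted p 0.0674 to 0.0979), and with ribosomal protein scaling the log2 change was below 0 in all 4 lines. It was then -0.46 in shPIP4K2A and -1.30 in shPIP4K2B cells, both past the test (adjusted p 0.027 and 3.01e-05, edgeR), and -0.19 in shPIP4K2AB and -0.41 in plko cells, which did not pass (adjusted p 0.33 and 0.11).

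Of the JUN family, JUNB rose in every line and JUN, the partner that gives the family its name, did not. JUNB, often described as a weaker activator than JUN, was 69.5 and 38.8 CPM in shPIP4K2A UV libraries, against 12.7 and 16 CPM untreated, and 50.1 and 45.3 CPM in shPIP4K2B UV libraries, against 14.1 and 14.9 CPM untreated. It was 44.5 and 48.0 CPM in shPIP4K2AB UV libraries, against 14.8 and 15.6 CPM untreated. It was 56.1 and 62.3 CPM in plko UV libraries, against 23.3 CPM untreated. No UV library overlapped an untreated one. JUNB rose by 1.92 ± 0.21, 1.72 ± 0.21, 1.61 ± 0.21 and 1.34 ± 0.26 on the log2 scale (SE) in shPIP4K2A, shPIP4K2B, shPIP4K2AB and plko cells (largest adjusted p = 0.00403, edgeR), and by 1.09, 0.81, 0.73 and 0.62 with ribosomal protein scaling.

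JUN was 83.8 and 48.6 CPM in shPIP4K2A UV libraries, against 55.6 and 72.7 CPM untreated, and 70.5 and 66.4 CPM in shPIP4K2B UV libraries, against 74.9 and 66.1 CPM untreated. It was 47.8 and 49.1 CPM in shPIP4K2AB UV libraries, against 65.6 and 78.6 CPM untreated. It was 58.5 and 55.3 CPM in plko UV libraries, against 79.7 CPM untreated. UV and untreated libraries overlapped in the single knockdown lines and did not in the other 2 lines. The log2 change was 0.05 ± 0.20 (SE; 95% interval -0.39 to 0.48) in shPIP4K2A, -0.04 ± 0.20 (-0.47 to 0.39) in shPIP4K2B, -0.57 ± 0.20 (-1.01 to -0.14) in shPIP4K2AB and -0.49 ± 0.24 (-1.0 to 0.03) in plko cells, of which on this TMM scale only the shPIP4K2AB value passed (adjusted p = 0.0416, edgeR). With ribosomal protein scaling JUN was lower in all 4 lines, at -0.78, -0.95, -1.44 and -1.21, each past the test (largest adjusted p = 0.00101, edgeR). The TMM call in shPIP4K2AB was lost without any of 8 libraries in turn, shPIP4K2AB or other. In shPIP4K2A cells the JUN change was -0.43 without UV replicate 1 and 0.39 without UV replicate 2, so its direction depended on the library kept. A rise of JUN as large as that of FOS lies outside each of these intervals.

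JUND, the JUN family member that is usually expressed without a stimulus, was 133 and 116 CPM in shPIP4K2A UV libraries, against 67.9 and 95.1 CPM untreated, and 179 and 167 CPM in shPIP4K2B UV libraries, against 68.2 and 75.5 CPM untreated. It was 175 and 180 CPM in shPIP4K2AB UV libraries, against 80.5 and 96.6 CPM untreated. It was 181 and 200 CPM in plko UV libraries, against 97.5 CPM untreated. On this CPM scale every UV library lay above every untreated library. JUND rose by 0.62 ± 0.14, 1.26 ± 0.14, 1.00 ± 0.14 and 0.96 ± 0.18 on the log2 scale (SE) in shPIP4K2A, shPIP4K2B, shPIP4K2AB and plko cells (largest adjusted p = 0.00627, edgeR), but with ribosomal protein scaling the changes were -0.18, 0.36, 0.14 and 0.24, of which only the shPIP4K2B value passed (adjusted p = 0.0097). The shPIP4K2A call was also lost without shPIP4K2A untreated replicate 1 (log2 0.39, adjusted p = 0.0599).

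ATF3, a stress-induced factor that as a homodimer acts as a repressor, was 24.9 and 23.7 CPM in shPIP4K2A UV libraries, against 12.9 and 12.8 CPM untreated, and 30.3 and 28.0 CPM in shPIP4K2B UV libraries, against 14.8 and 13.3 CPM untreated. It was 24.9 and 26.8 CPM in shPIP4K2AB UV libraries, against 13.6 and 12.2 CPM untreated. It was 18.1 and 18.5 CPM in plko UV libraries, against 13.6 CPM untreated. All untreated libraries lay between 12.2 and 14.8 CPM, whereas after UV both plko libraries lay below all 6 knockdown libraries. ATF3 rose by 0.92 ± 0.10, 1.05 ± 0.10, 1.00 ± 0.10 and 0.43 ± 0.13 on the log2 scale (SE) in shPIP4K2A, shPIP4K2B, shPIP4K2AB and plko cells (adjusted p 5.37e-05, 1.81e-05, 1.95e-05 and 0.0336, edgeR); with ribosomal protein scaling none of the 4 passed, at 0.11, 0.14, 0.13 and, reversed, -0.30. The plko call was lost without any of 4 libraries, either plko UV or either shPIP4K2AB UV library (adjusted p 0.0529 to 0.11).

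MAFF was 12.8 and 14.4 CPM in shPIP4K2A UV libraries, against 11.2 and 13.7 CPM untreated, and 18.2 and 16 CPM in shPIP4K2B UV libraries, against 14.1 and 14 CPM untreated. It was 13.4 and 13.6 CPM in shPIP4K2AB UV libraries, against 7.75 and 9.25 CPM untreated. It was 12.6 and 13.8 CPM in plko UV libraries, against 8.96 CPM untreated. Only the shPIP4K2A libraries overlapped within a line. The log2 change passed in shPIP4K2AB (0.67 ± 0.13 SE, adjusted p = 0.00203, edgeR) and plko cells (0.56 ± 0.17, adjusted p = 0.0338), and not in shPIP4K2A (0.13 ± 0.13, adjusted p = 0.483) or shPIP4K2B cells (0.28 ± 0.13, adjusted p = 0.115). With ribosomal protein scaling it was below 0 in all 4 lines, -0.66, -0.63, -0.20 and -0.17, and the shPIP4K2A and shPIP4K2B values passed (adjusted p 0.00103 and 0.0012, edgeR). On the TMM scale the plko call was lost without either plko UV library (adjusted p 0.0524 and 0.129).

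**Figure D2:**
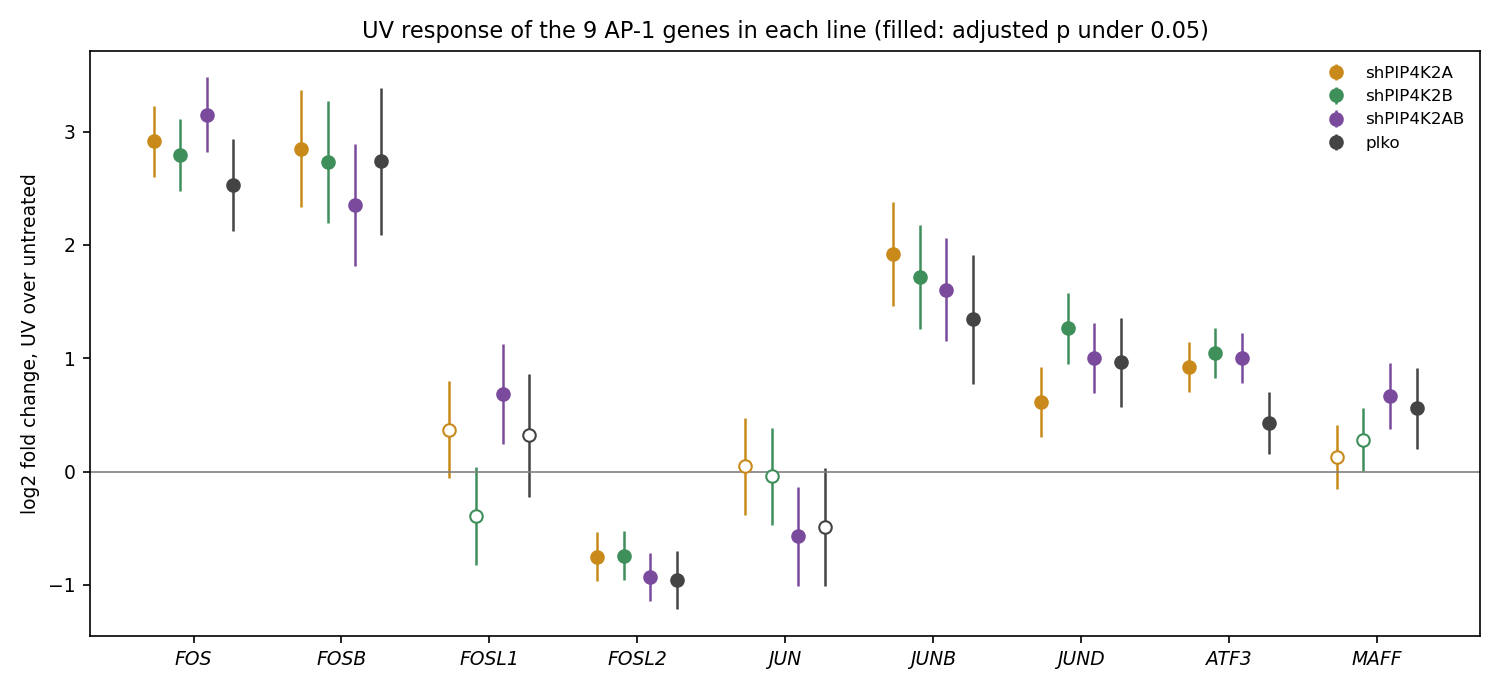
UV response of each AP-1 gene as log2 fold change, UV over untreated (vertical axis), in 4 lines; points are edgeR estimates on the TMM scale, bars are 95% intervals, and filled points have adjusted p under 0.05. FOS and FOSB lie highest, between 2.35 and 3.15, and FOSL2 lies between -0.96 and -0.74; with ribosomal protein scaling ATF3 in plko, JUND in shPIP4K2A, FOSL1 in shPIP4K2A, shPIP4K2AB and plko, JUN in shPIP4K2A and MAFF in every line turn below 0.

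Read per length, as TPM (transcript numbers scaled to a fixed total), the make-up of the 9 mRNAs shifted. FOSL2 made up 7.86 to 18.1% of their summed TPM in UV libraries, against 22.5 to 41.0% in untreated libraries, and JUN 5.36 to 7.86%, against 9.62 to 13%. FOS made up 8.77 to 14.3% in UV libraries, against 1.41 to 4.48% in untreated libraries, and JUNB 9.14 to 11.9%, against 3.90 to 6.30%. JUND ran from 29.1 to 41.4% in UV libraries, against 20.2 to 29.2% in untreated libraries, and had the highest mean TPM of the 9 in all 4 UV groups, where FOSL2 had it in the 3 untreated knockdown groups and JUND in the untreated plko library. None of these shares but that of JUND overlapped between UV and untreated libraries, and the JUND ranges overlapped only at their ends. By family the FOS genes held 33.2 to 43.0% in UV libraries, against 46.1 to 58.9% untreated, and the JUN genes 46.4 to 57.4%, against 33.8 to 47.4%. These shares are descriptions of mRNA, with no test and no bearing on protein. The FOSL2 and JUND shares also rest on transcript lengths that varied between libraries, given further on.

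On the TPM scale itself the UV rises were smaller. Mean FOS TPM was 20.5 after UV against 4.31 untreated in shPIP4K2A cells and 20.3 against 7.64 in plko cells, ratios of 4.76 and 2.65. Mean ATF3 TPM was 6.33 after UV against 7.80 untreated in plko cells, a ratio of 0.812, where the CPM fold was 1.35, and MAFF had TPM ratios of 0.708 to 0.864 in the 4 lines. For FOSL1 they were 0.916, 0.463, 0.902 and 0.753 in shPIP4K2A, shPIP4K2B, shPIP4K2AB and plko cells, where the CPM folds were 1.29, 0.762, 1.61 and 1.25. The isoform-weighted length that RSEM gives each gene was 1295 to 1497 bases for FOS in UV libraries, against 1054 to 1289 bases in untreated libraries, and 2324 to 2491 bases for MAFF, against 2199 to 2308 bases, without overlap in either. Lengths ran from 3847 to 6479 bases for FOSL2 among untreated libraries. Among UV libraries they ran from 1114 to 1929 bases for JUND and from 983 to 1754 bases for ATF3. For these genes the TPM is less certain than the CPM. In the 2 shPIP4K2A UV libraries TPM was 87.05 and 36.23 for JUND and 19.17 and 9.68 for ATF3. JUNB, annotated with 1 transcript of 1 exon, had the same length of 1830 bases in all 15 libraries.

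**Figure D3:**
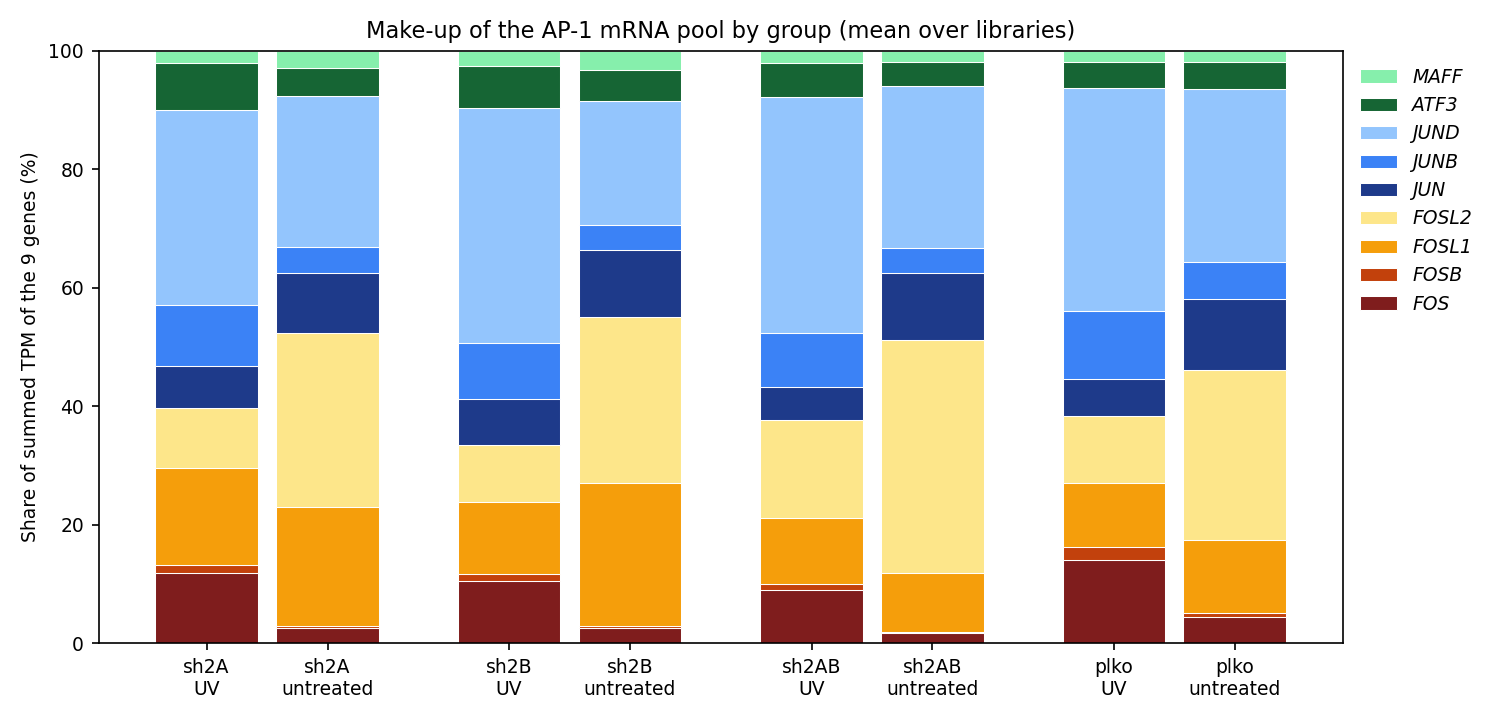
Share of each gene in the summed TPM of the 9 AP-1 genes (vertical axis, %), as the mean over the libraries of each group, UV left of untreated in each line (sh2A, shPIP4K2A; sh2B, shPIP4K2B; sh2AB, shPIP4K2AB). FOSL2 takes 9.59 to 16.7% after UV and 28.1 to 39.3% untreated, and FOS 9.02 to 14% after UV and 1.70 to 4.48% untreated.

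After UV, ATF3 mRNA was higher than in plko cells in all 3 knockdown lines, FOSB was lower in shPIP4K2B and shPIP4K2AB cells, FOS was lower in shPIP4K2AB cells and JUND in shPIP4K2A cells. Of the 9 members 2, 2 and 3 differed from plko in shPIP4K2A, shPIP4K2B and shPIP4K2AB UV libraries, beside 20.3, 19.0 and 15.4% of all genes. The 3 comparisons share the 2 plko UV libraries. Ribosomal protein scaling moved the median of all genes here to 0.23, -0.03 and 0.12, and by -0.28 to 0.14 between knockdown lines. Group means of FOS ran in the order 42.6 ± 3.76 CPM in shPIP4K2A, 38.6 ± 0.576 CPM in shPIP4K2B, 31.6 ± 0.989 CPM in shPIP4K2AB and 49.8 ± 3.39 CPM in plko UV libraries (SD, n = 2 each); no libraries of any pair of these groups overlapped. Against plko, FOS was lower by the test in shPIP4K2AB cells (log2 -0.66 ± 0.13 SE, adjusted p = 0.00483, edgeR), and not in shPIP4K2B (-0.37 ± 0.13, adjusted p = 0.0667) or shPIP4K2A cells (-0.23 ± 0.13, adjusted p = 0.25). The shPIP4K2AB call was lost without shPIP4K2AB UV replicate 1 (log2 -0.62, adjusted p = 0.0549). The shPIP4K2B value passed without either shPIP4K2A UV library or without shPIP4K2A untreated replicate 1 (adjusted p 0.0227, 0.0241 and 0.049).

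FOSB followed the same order of means after UV, 9.47 ± 3.13 CPM in shPIP4K2A, 7.27 ± 0.664 CPM in shPIP4K2B, 6.07 ± 0.726 CPM in shPIP4K2AB and 13.7 ± 0.421 CPM in plko libraries (SD, n = 2 each). It was lower than in plko by -0.54 ± 0.20 (SE; adjusted p = 0.0752, edgeR), -0.92 ± 0.20 (adjusted p = 0.00695) and -1.18 ± 0.20 (adjusted p = 0.00206) on the log2 scale. All 6 knockdown libraries lay below both plko libraries, while shPIP4K2A and shPIP4K2B libraries overlapped with each other. The shPIP4K2B call was lost without plko UV replicate 1 or shPIP4K2B UV replicate 2 (adjusted p 0.052 and 0.0729), and the shPIP4K2A value passed without shPIP4K2A UV replicate 1 (log2 -0.94, adjusted p = 0.00185).

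ATF3 was higher than in plko in all 3 knockdown lines after UV, by 0.41 ± 0.10 in shPIP4K2A, 0.67 ± 0.10 in shPIP4K2B and 0.50 ± 0.10 in shPIP4K2AB cells on the log2 scale (SE; adjusted p 0.0123, 0.000535 and 0.00526, edgeR). With ribosomal protein scaling the differences were 0.63, 0.65 and 0.62, all past the test. The shPIP4K2A call was lost without either plko UV library (adjusted p 0.101 and 0.0638), and the shPIP4K2AB call without plko UV replicate 1 or shPIP4K2AB UV replicate 2 (adjusted p 0.0584 and 0.0739). JUND was lower in shPIP4K2A than in plko UV libraries (log2 -0.61 ± 0.14, adjusted p = 0.00935), lost without plko UV replicate 2 (adjusted p = 0.0799). FOSL1, FOSL2, JUN, JUNB and MAFF passed in no knockdown line after UV, although JUNB passed in shPIP4K2B and shPIP4K2AB cells without either shPIP4K2A UV library (log2 -0.31 and -0.35, adjusted p 0.0171 to 0.0325) and MAFF in shPIP4K2B cells without any 1 shPIP4K2A library (log2 0.37 to 0.38, adjusted p 0.0254 to 0.0468). For FOSL1, JUN and JUNB in shPIP4K2A this depended on which UV library was kept: without replicate 2 FOSL1 and JUN were 0.94 and 0.56 above plko (adjusted p 3.19e-05 and 0.0078), and without replicate 1 JUNB was -0.62 from it (adjusted p = 0.00249).

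**Figure D4:**
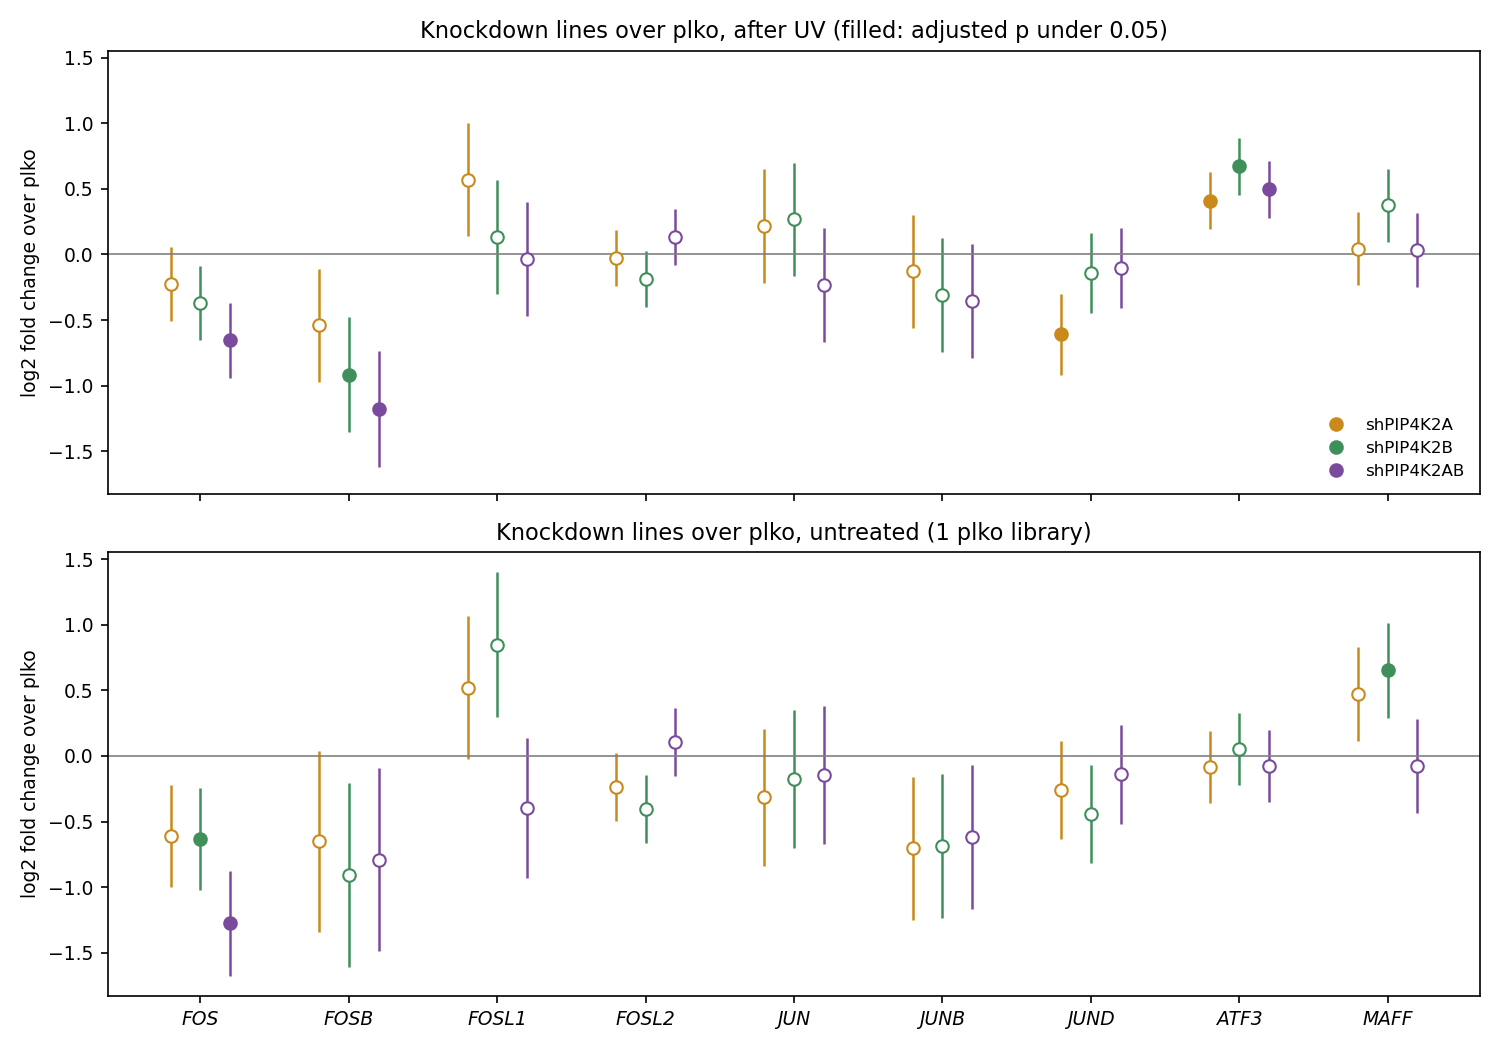
Difference of each knockdown line from plko cells as log2 fold change (vertical axis), after UV (upper panel) and untreated (lower panel), for the 9 genes; points are edgeR estimates, bars are 95% intervals and filled points have adjusted p under 0.05. After UV ATF3 lies above 0 in all 3 lines and FOSB below it, from -1.18 to -0.54, and the untreated panel rests on 1 plko library.

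Untreated, FOS was lower in shPIP4K2AB cells than in plko and than in either single knockdown. Against the 1 plko library, 0, 2 and 1 of 9 members changed in shPIP4K2A, shPIP4K2B and shPIP4K2AB cells, beside 7.84, 10.2 and 6.20% of all genes. At an unadjusted p under 0.05 the counts were 3, 7 and 3, and with DESeq2 1, 4 and 1, the first of them FOS (adjusted p = 0.0272). The shares above belong to the adjusted edgeR test only. The unadjusted and DESeq2 counts have no share of all genes beside them and are not read as particular to the members. Ribosomal protein scaling moved the median of all genes to 0.31, 0.15 and 0.26. FOS differed by -1.28 ± 0.18 (SE; adjusted p = 0.00141, edgeR) in shPIP4K2AB, by -0.63 ± 0.18 (adjusted p = 0.0413) in shPIP4K2B and by -0.61 ± 0.18 (adjusted p = 0.0563) in shPIP4K2A cells on the log2 scale. The shPIP4K2B call was lost without any of 7 libraries (adjusted p 0.0572 to 0.22) and with ribosomal protein scaling (log2 -0.48, adjusted p = 0.127). JUNB was 0.614, 0.621 and 0.652 of the plko level, short of the test (adjusted p 0.115, 0.11 and 0.192), and passed in all 3 lines without either shPIP4K2A UV library (adjusted p 0.00226 to 0.00688). MAFF was higher in shPIP4K2B cells (0.65 ± 0.17, adjusted p = 0.0253), lost without either shPIP4K2B untreated library (adjusted p 0.0887 and 0.0565). Group means of FOSL1 were 49.4, 61.9 and 26.1 CPM in shPIP4K2A, shPIP4K2B and shPIP4K2AB cells and 34.4 CPM in the plko library, and no difference from plko passed (log2 0.52, 0.85 and -0.40, adjusted p 0.255, 0.0532 and 0.428); all 3 passed without either shPIP4K2A UV library (adjusted p 0.000156 to 0.0403).

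The lines with 2 libraries each allow firmer comparisons. Untreated, shPIP4K2AB cells differed from shPIP4K2A cells in 3 of 9 members, beside 7.10% of all genes, and from shPIP4K2B cells in 4 of 9, beside 15.4%. FOSL1 was lower by 0.92 ± 0.20 on the log2 scale against shPIP4K2A (adjusted p = 0.0157, edgeR) and by 1.25 ± 0.20 against shPIP4K2B cells (adjusted p = 0.00115), with no overlap of libraries. FOS differed by -0.66 ± 0.16 (adjusted p = 0.0246) and -0.64 ± 0.16 (adjusted p = 0.016), MAFF by -0.55 ± 0.13 (adjusted p = 0.0248) and -0.73 ± 0.13 (adjusted p = 0.00237), and FOSL2 by 0.51 ± 0.10 against shPIP4K2B (adjusted p = 0.00364). Against shPIP4K2A the FOSL2 difference of 0.34 ± 0.10 fell short (adjusted p = 0.0568), and it passed without either shPIP4K2A UV library (adjusted p 0.00587 and 0.00701). The FOS calls were lost without shPIP4K2AB untreated replicate 2 (adjusted p 0.237 and 0.159) and without replicate 2 of the other line (adjusted p 0.13 and 0.123). Against shPIP4K2A the FOSL1 call was lost without any library of either line (adjusted p 0.0579 to 0.133) and the MAFF call without 3 of the 4 (adjusted p 0.0526 to 0.188), and the FOSL2 call against shPIP4K2B without shPIP4K2AB untreated replicate 2 (adjusted p = 0.0505). Between shPIP4K2B and shPIP4K2A untreated cells 0 of 9 passed in edgeR, beside 3.16% of all genes. DESeq2 and unadjusted counts have no share of all genes beside them and are not read as particular to the members. With DESeq2, or at an unadjusted p under 0.05, 0 of 9 passed between these lines too. FOSL1 alone passed there without either shPIP4K2A UV library (adjusted p 0.0454 and 0.0436).

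After UV, shPIP4K2AB cells differed from shPIP4K2A cells in 3 of 9 members, beside 19.5% of all genes. These were FOS (log2 -0.43 ± 0.13 SE, adjusted p = 0.0361, edgeR), FOSB (-0.64 ± 0.21, adjusted p = 0.0468) and JUND (0.51 ± 0.14, adjusted p = 0.025). FOSB lost its call without any of 13 libraries in turn and fell to -0.24 (adjusted p = 0.369) without shPIP4K2A UV replicate 1, FOS lost it without any of 7 (adjusted p 0.0503 to 0.205), and JUND without any of 3 (adjusted p 0.0674 to 0.0995). From shPIP4K2B cells shPIP4K2AB cells differed in FOSL2 alone (0.32 ± 0.10, adjusted p = 0.0412, beside 17.7% of all genes), and shPIP4K2B from shPIP4K2A cells in JUND alone (0.47 ± 0.14, adjusted p = 0.045, beside 14.4%). Both were lost without any of several libraries, 8 for FOSL2 (adjusted p up to 0.207) and 7 for JUND (up to 0.197).

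Whether the UV response itself differed between lines was tested as a difference of log2 fold changes, and 0 of 9 members passed in any of 6 such comparisons with edgeR or DESeq2. At an unadjusted p under 0.05 the counts were 1, 2 and 2 for shPIP4K2A, shPIP4K2B and shPIP4K2AB against plko, 2 and 1 for shPIP4K2AB against shPIP4K2A and shPIP4K2B, and 2 for shPIP4K2B against shPIP4K2A. By adjusted p almost no gene passed: 2, 0, 2, 3, 0 and 0 of 22597 in the same order, 0.00885, 0, 0.00885, 0.0133, 0 and 0%. No share of all genes is given at the unadjusted threshold or with DESeq2, so those counts are not read as particular to the members. The ATF3 response was larger than in plko by 0.49 ± 0.16, 0.62 ± 0.16 and 0.57 ± 0.16 on the log2 scale (SE), with 95% intervals of 0.14 to 0.84, 0.27 to 0.97 and 0.23 to 0.92, and adjusted p-values of 0.901, 0.624 and 0.898; these 3 share the plko libraries. For FOS the differences from plko were 0.39 (-0.09 to 0.87), 0.27 (-0.22 to 0.75) and 0.62 (0.13 to 1.11), none past the test. FOSL1 had the largest difference of the 9, 1.08 ± 0.29 between shPIP4K2AB and shPIP4K2B cells (95% interval 0.46 to 1.70; unadjusted p = 0.0024, adjusted p = 1). It passed without either shPIP4K2A UV library (adjusted p 0.0087 and 0.00719) and when only the groups compared were fitted (adjusted p = 0.00199). Without shPIP4K2A UV replicate 2 the JUN and JUNB responses of shPIP4K2A cells also exceeded those of plko, by 0.87 and 0.94 (adjusted p 0.0178 and 0.00855), and those of shPIP4K2AB cells.

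Genes around AP-1 were read from lists of known partners, upstream kinases and targets, as counts beside the shares of all genes above. Of 30 AP-1 target genes 16, 12, 14 and 9 rose after UV and 2, 2, 2 and 3 fell in shPIP4K2A, shPIP4K2B, shPIP4K2AB and plko cells, where 16.6, 17.5, 19.1 and 8.67% of all genes rose and 14, 15.4, 16.1 and 9.82% fell. HBEGF, a ligand of the epidermal growth factor receptor, rose in each line (log2 0.90 ± 0.09, 0.95 ± 0.09, 1.19 ± 0.09 and 1.64 ± 0.12 SE), as did the hyaluronan receptor CD44 (0.30 to 0.48) and the metalloproteinase inhibitor TIMP1 (0.55 to 1.01). The cytokine gene LIF (-1.75 to -1.30) and the haem oxygenase gene HMOX1 (-1.02 to -0.65) fell in each line. All list values are on the TMM scale, and some rises are smaller than the shift of the median under ribosomal protein scaling, among them those of CD44 in each line and of TIMP1 in shPIP4K2A, shPIP4K2AB and plko cells.

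Of 26 other bZIP genes tested 6, 4, 5 and 3 rose and 6, 8, 7 and 5 fell in the same lines. Of all genes 16.6, 17.5, 19.1 and 8.67% rose there and 14, 15.4, 16.1 and 9.82% fell. The bZIP counts are not read as particular to that list. ATF4, which drives the amino acid and stress response, rose by 1.04 ± 0.08, 0.91 ± 0.08, 1.05 ± 0.08 and 0.64 ± 0.10 (log2, SE), the last of them smaller than that shift, and CEBPB, a bZIP factor of inflammation, by 0.81 to 1.38. The small MAF genes MAFG and MAFK, relatives of MAFF, fell in each line, MAFK by 1.22 ± 0.16, 1.03 ± 0.16, 1.17 ± 0.16 and 1.24 ± 0.18, and so did the AP-1 repressor gene JDP2 (-1.01 to -0.72) and NFE2L2, which encodes the small MAF partner NRF2 (-0.97 to -0.52).

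Of 25 kinases of the JNK, p38 and ERK pathways 4, 4, 6 and 2 rose and 3, 5, 6 and 2 fell. Of all genes 16.6, 17.5, 19.1 and 8.67% rose and 14, 15.4, 16.1 and 9.82% fell. The counts in this paragraph are not read as particular to their lists. MAP3K1, which acts upstream of JNK, fell in each line (-1.14 to -0.93). MAP3K20, which encodes the ribotoxic stress kinase ZAK, rose in shPIP4K2A (0.38), shPIP4K2AB (0.39) and plko cells (0.51). It was 0.20 ± 0.13 in shPIP4K2B cells. Each of these MAP3K20 rises was smaller than the shift of the median under ribosomal protein scaling. Of 6 genes of the serum response and ternary complex factors 1 rose and 2 fell in each line, and the 2 that fell were the actin-regulated coactivator genes MRTFA (-1.10 to -0.63) and MRTFB (-0.56 to -0.34). Of 6 mRNA decay regulators 4, 2, 1 and 1 rose and 1 fell in each line. That was ZFP36L2 (-0.62 to -0.37), which like its relative ZFP36L1 marks mRNAs with AU-rich elements, such as that of FOS, for decay. ZFP36L1 itself rose in shPIP4K2A (0.60) and plko cells (0.59), and averaged 676 CPM without TMM, against 76.9 CPM for ZFP36L2. KHSRP rose in shPIP4K2A (0.80) and shPIP4K2B cells (0.72), HNRNPD in shPIP4K2A cells (0.88) and ELAVL1 in each knockdown line (0.30 to 0.51). All but the shPIP4K2A rises of KHSRP and HNRNPD were smaller than that shift. Their part in FOS mRNA was not tested.

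The genes whose group means ran closest to each member were found among 11067 genes, by the root mean square (RMS) difference of centred log2 CPM over the 8 groups. For FOS they were C11orf96 (0.29) and ARC (0.35), the immediate early gene of synaptic plasticity, beside a spread of FOS itself of 1.46. ARC averaged 194, 274, 171 and 316 CPM after UV in shPIP4K2A, shPIP4K2B, shPIP4K2AB and plko cells, against 24.2, 31.4, 21.6 and 27.3 CPM untreated. For FOSB they were C11orf96 (0.33) and SHISA2 (0.34), and for JUNB TSC22D3 (0.21) and SNAI1 (0.25). For FOSL2 they were MAP3K12 (0.09) and ELF1 (0.11), for JUND APRT (0.11), and for JUN SRRM2 (0.08) and RNF214 (0.09). For FOSL1 they were RRAGD (0.17) and C4orf46 (0.17), for ATF3 NDUFAF8 (0.07) and AKR7A2 (0.08), and for MAFF MICOS10 (0.09) and DCTD (0.09). Over the 15 single libraries ARC, SHISA2, MAP3K12, SNAI1 and APRT were the nearest, whereas NDUFAF8 dropped to place 2685 of 11067 for ATF3 and MICOS10 to place 315 for MAFF. Among the members, the smallest RMS differences over the groups were FOSL1 with MAFF (0.24) and FOS with FOSB (0.27). The RMS is not scaled to a gene's own spread, so genes that vary little lie close more easily. That spread was 0.388 for FOSL1 and 0.316 for MAFF, against 1.46 for FOS and 1.365 for FOSB. It was 0.207 for JUN, 0.4525 for FOSL2, 0.46 for ATF3, 0.524 for JUND and 0.846 for JUNB.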

How the data were processed

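Total RNA from 16 samples of U2OS cells, in 8 groups by label, had been depleted of ribosomal RNA and sequenced from a directional library kit, per the labels' protocols. Reads were aligned with STAR and quantified with RSEM on GRCh38, with SAMtools also named, per the submitters' processing notes. Not given in the sources used here are tool versions, the annotation release and the strand setting, so reads of a gene and of any antisense partner may not be separated. The deposited tables hold RSEM expected counts per gene, TPM as the authors computed it, and an abundance-weighted transcript length in bases.

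Expected counts were rounded to whole numbers. Genes were kept by filterByExpr in edgeR 4.0.16 (R 4.3.3, minimum count 10), which left 22597, scaled by TMM and fitted with 1 term per group over 15 libraries, without plko untreated replicate 1. A quasi-likelihood test gave 22 contrasts, each with Benjamini-Hochberg adjustment over all genes tested and a threshold of 0.05, and was tested on simulated data. The SE is the log2 fold change divided by the square root of F. The 15 libraries held 28.0 to 39.9 M counts. TPM was used to compare genes with each other, without a test. The members and gene lists were chosen with earlier results of these data known. All 9 members were described in every comparison and all passed the filter, with the 2 nearest genes to each by RMS, and the genes named from each list are among the 6 past the test after UV in the most lines, with ties settled by mean CPM. Some genes that this rule selects are not reported here. Symbols matched 60437 of 60666 identifiers, and 58420 identifiers were in GENCODE 29. Promoters came from RefSeq (GRCh38.p14); 8 of 9 members matched, FOSL1 being the member without an entry.

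Each alternative changed 1 choice: all 16 libraries, RLE size factors, scaling on 84 ribosomal protein genes, DESeq2 1.42.0, a replicate block, no filter or one of CPM above 1 in 2 libraries, a fit restricted to the groups of a comparison, and each library left out.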

Additional observations from a re-analysis of the deposited data

Results flagged for a closer look

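FOS, FOSB and MAFF stood out in the library set aside, plko untreated replicate 1, whose values enter no comparison. FOS was 49.3 CPM there (63 counts, exact Poisson 95% interval 37.9 to 63.1 CPM), against 3.51 to 9.54 CPM in the other 7 untreated libraries, on a scale without TMM. FOSB was 32.1 CPM (41 counts, 23.0 to 43.5 CPM), against 1.02 to 2.27 CPM, and MAFF was 41.5 CPM (53 counts, 31.1 to 54.2 CPM), against 8.75 to 15.3 CPM. The intervals cover counting error only. The other 6 members were not above the untreated range, and FOSL2 at 135 CPM and JUND at 46.2 CPM lay below it (295 to 470 and 73.7 to 108 CPM). In the same library all 10 blood cell markers were above their highest level in the other 15 libraries, among them PECAM1 at 42.2, MS4A1 at 39.9, CD14 at 27.4 and PTPRC at 26.6 CPM. Markers of other lists were also above the other 15 libraries, among them COL1A2 at 201 (at most 0.627 elsewhere), IBSP at 10.2 (0.0352), KRT5 at 47.7 (2.13), KRT19 at 7.82 (0.11) and CDH1 at 18.8 CPM (5.51), and mitochondrial genes held 14.6% of counts. Their part in the FOS, FOSB and MAFF values was not tested.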

How the results depend on the processing

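Of 198 member values (9 genes in 22 comparisons), RLE size factors left 195, CPM above 1 in 2 libraries 192, DESeq2 191 and the replicate block 193 with the same direction and the same side of the threshold. Ribosomal protein scaling and the fit of only the groups compared left 166 each, no filter 173 and all 16 libraries 153. The lines below are in the order shPIP4K2A, shPIP4K2B, shPIP4K2AB and plko, and counts are of members that passed, out of 9. The share of all genes that passed is not given per setting. Shifts of these counts are therefore not read as particular to the members.

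With all 16 libraries the biological coefficient of variation was 41.9%, against 11.3%, and the members passing after UV numbered 1, 1, 1 and 2 in place of 6, 6, 9 and 7, with 0 in every other comparison; MAFF in plko reversed to -0.018. With ribosomal protein scaling the UV counts were 7, 8, 5 and 5. The values that changed sign and passed in at least 1 of both fits were FOSL1 (-0.46 and -0.19 in shPIP4K2A and shPIP4K2AB), JUN and JUND in shPIP4K2A (-0.78 and -0.18), MAFF (-0.66, -0.63, -0.20 and -0.17) and ATF3 in plko (-0.30); FOSL1 in plko, -0.41, passed in neither. The other counts that moved by over 1.5 times there were 2 and 2 for shPIP4K2A and shPIP4K2AB against plko untreated, 5 for shPIP4K2AB against shPIP4K2A after UV and 3 for shPIP4K2B against shPIP4K2A after UV. Without a filter the counts against plko untreated were 3, 7 and 2, in place of 0, 2 and 1. They were 1 and 4 for shPIP4K2A and shPIP4K2B with CPM above 1 and with DESeq2, and 1, 6 and 3 with only the groups compared. Against plko after UV they were 4 for shPIP4K2A without a filter and 0, 7 and 5 with only the groups compared, in place of 2, 2 and 3. Between knockdown lines after UV, counts were 5, 2 and 2 without a filter and 0, 5 and 0 with only the groups compared, in place of 3, 1 and 1 (shPIP4K2AB against shPIP4K2A, shPIP4K2AB against shPIP4K2B, shPIP4K2B against shPIP4K2A), and RLE gave 0 for the last 2. Untreated, only the groups compared gave 1 in place of 3 for shPIP4K2AB against shPIP4K2A. Differences of UV response, 0 throughout, became 1, 1, 1 and 2 without a filter (shPIP4K2B minus plko and the 3 between knockdowns), and 1 for shPIP4K2AB minus shPIP4K2B with only the groups compared. The cause of these shifts was not tested.

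Leaving out 1 library at a time gave 5 to 8, 6 to 7, 7 to 9 and 5 to 9 members after UV, 0 to 4, 0 to 6 and 1 to 4 against plko untreated and 0 to 4, 1 to 5 and 2 to 4 against plko after UV. Between knockdowns it gave 0 to 4, 2 to 4 and 0 to 1 untreated and 0 to 5, 0 to 3 and 0 to 4 after UV. For responses it gave 0 to 2, 0 to 0 and 0 to 0 against plko and 0 to 2, 0 to 1 and 0 to 1 between knockdowns. JUN in shPIP4K2A reversed to -0.43 without shPIP4K2A UV replicate 1 and ranged up to 0.39, without replicate 2. Leaving out either shPIP4K2A UV library brought 26 and 36 member values past the threshold. Without plko untreated replicate 2 the comparisons that use it have no value.

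The replicate numbers showed no pairing common to all groups. Same-numbered deviations correlated at -0.379 to 0.672 over 21 pairs of groups, with a median of -0.0004, 5 pairs over 0.1 and 6 under -0.1. Whether some of the groups were paired was not tested. With the replicate block the counts were 6, 6, 8 and 6 after UV, 1 for shPIP4K2B against plko untreated, 3 for shPIP4K2A against plko after UV and 0 for shPIP4K2AB against shPIP4K2B after UV. The calls lost were JUN in shPIP4K2AB and ATF3 in plko after UV, FOS for shPIP4K2B against plko untreated and FOSL2 for shPIP4K2AB against shPIP4K2B after UV, and the call gained was FOSB for shPIP4K2A against plko after UV (-0.56). Precision is limited by 2 libraries a group and by 1 untreated plko library.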
